A study of Mus musculus with 40 samples.

Results

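Estradiol and dihydrotestosterone (DHT) were compared in the livers of castrated male mice, 5 animals with an estradiol pellet and 5 with a DHT pellet. These 10 animals were taken by their labels from the 40 mice of the series, and all 23574 probes of the array entered the comparison. All animals were C57BL/6J, an inbred laboratory strain, on chow with 4% fat. The 10 males were castrated at 8 weeks of age, received the pellet at 12 weeks and were killed at 14 weeks after a 12 h fast. Estradiol pellets (0.5 mg) brought plasma to 300 pg/ml. DHT pellets (5 mg) brought it to 1 to 2 ng/ml, per the labels. Release ran over 21 days, and the hormones were not given at matched doses. Estradiol animals are numbered 41, 43, 44, 45 and 46 and DHT animals 59, 60, 61, 62 and 63 in the labels, and values below follow that order. Castrated males with a placebo pellet, ovariectomized females with estradiol, DHT or placebo on the same schedule, and intact females and males, each with 5 animals, served as side comparisons. The intact mice were also killed at 14 weeks after a 12 h fast, and the labels do not say whether they carried a pellet.

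Estradiol is an estrogen and acts through estrogen receptors, and DHT is a potent androgen. DHT is not converted to estrogen by aromatase, which testosterone is. In rodents the liver has a strong sex difference in steroid, drug and bile acid metabolism. This difference is set largely by the pattern in which the pituitary releases growth hormone, pulsed in males and steadier in females, which gonadal steroids modify, and which the liver reads through the transcription factor STAT5B. A pellet can therefore reach a liver gene directly or by way of the pituitary.

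Each value is a log2 ratio of liver RNA to a common pool on the same array, so levels of different genes cannot be ranked against each other. Array medians of the 40 animals lay between -0.0135 and 0.0109 on the deposited log10 scale, and the spread left within groups had a median SD of 0.146 log2 units over the probes. The number of arrays limits the precision. Signal over background was not given. For the Y-linked genes Eif2s3y and Kdm5d all 20 males lay above all 20 females, so the 10 livers matched their labelled sex. Of 12 hepatocyte markers 7 were measured, with a mean log2 ratio of -0.15 to -0.03 in estradiol livers and -0.21 to 0.02 in DHT livers. Ratios to a liver pool do not by themselves check the tissue.

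Some animals stood apart within their groups. DHT animal 61 lay near the placebo animals for many genes that differ between intact females and males, and DHT animal 63 lay between it and the other 3 DHT animals. Over the 167 probes that passed the test below, animal 61 was the DHT animal nearest to the estradiol group for 65 and animal 63 for 74. Estradiol animals 43 and 44 lay above animals 41 and 45 for Mmd2, Corin and Dntt, described below, and animal 41 was the estradiol animal nearest to the DHT group for 64 of the 167 probes. Among ovariectomized females with DHT, animal 53 lay near the animals without DHT. The cause was not tested.

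Of the 23574 probes, 167 (0.708%) differed between estradiol and DHT livers at a Benjamini-Hochberg adjusted p under 0.05 in limma, 91 higher (0.386%) and 76 lower (0.322%) with estradiol. A total of 85 of them differed by at least 1.5-fold (0.361%) and 37 by at least 2-fold. At an unadjusted p under 0.05 there were 2957 probes, or 12.5%. The 5 estradiol and 5 DHT values did not overlap for 343 probes (1.45%), 81 of which also passed the test (0.344%). Counted as genes, with 1 probe each, 106 of 10842 passed (0.978%), 61 higher (0.563%) and 45 lower (0.415%), while 53 of the 167 probes could not be named. The median difference over all probes was -0.02. The count depended strongly on which arrays entered the fit, with 8 probes when the spread was estimated from these 10 animals alone. It was 48, 64, 81 and 493 without DHT animals 59, 60, 62 and 63, and 102, 56 and 110 without estradiol animals 43, 44 and 46.

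The 30 genes named first are the 15 highest and 15 lowest among those that passed without overlap of the groups. In the heat map they form blocks that run across the placebo animals in different ways. Some genes differed from placebo with DHT and did not pass with estradiol, and for others it was the reverse.

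**Figure D1:**
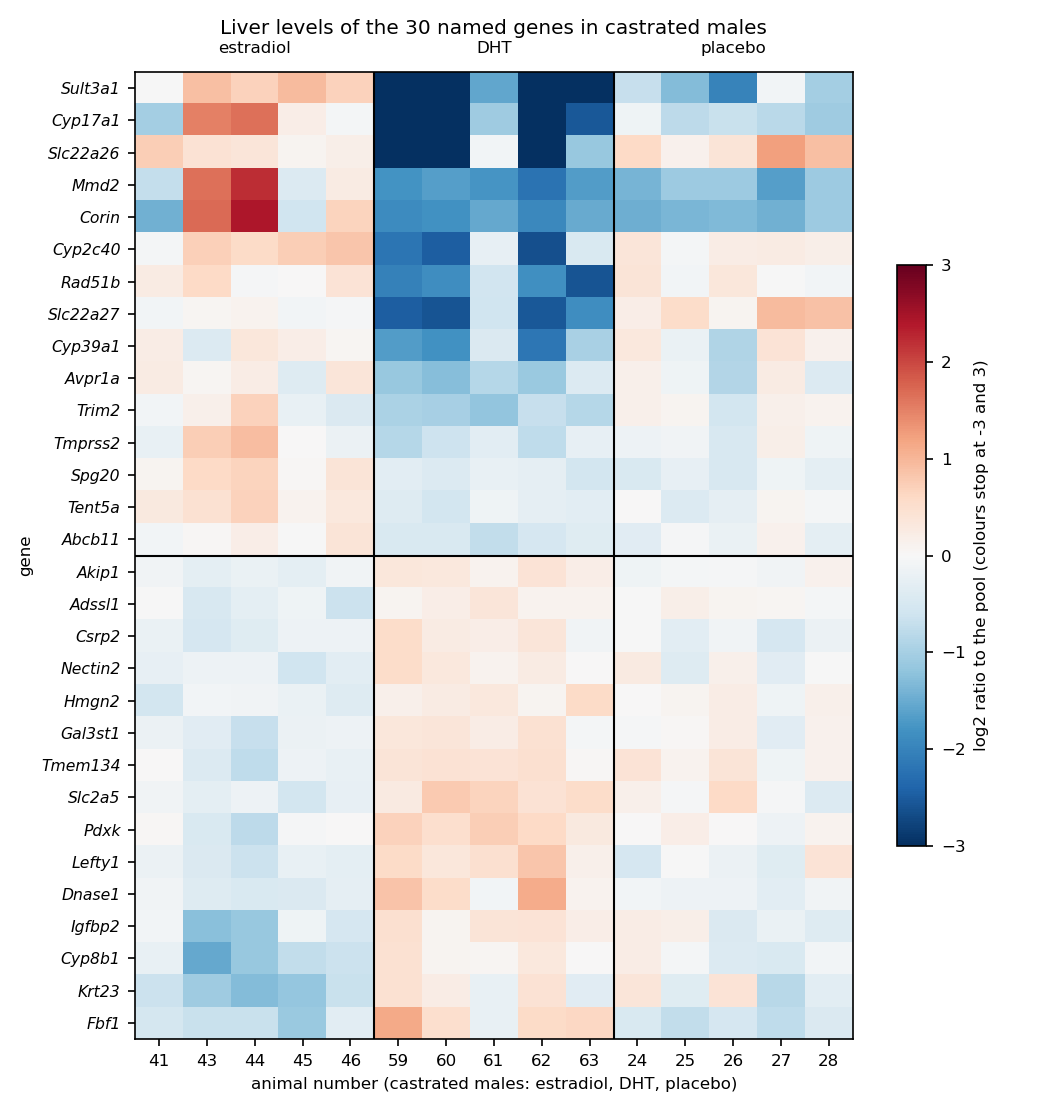
Heat map of the 30 named genes (rows) in each castrated male (columns, with animal numbers), estradiol left, DHT in the middle and placebo right; colour gives the log2 ratio to the pool, from -3 in blue to 3 in red. Among the genes higher with estradiol (upper block), DHT animal 61 is paler than the other DHT animals for Sult3a1, Cyp17a1, Slc22a26 and Slc22a27, and estradiol animals 43 and 44 are the darkest red for Mmd2 and Corin.

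The largest difference among them was in Sult3a1, a sulfotransferase gene of the liver that is higher in female than in male mice. It lay at -0.01, 0.91, 0.68, 0.96 and 0.69 with estradiol, and at -4.65, -3.24, -1.56, -4.61 and -3.54 with DHT. All 5 estradiol livers were above all 5 DHT livers, by 4.17 ± 0.64 (SE) on the log2 scale or 18.0-fold, with a limma adjusted p of 0.000675. Placebo livers ran from -1.99 to -0.07, below every estradiol liver and above 4 of the 5 DHT livers, with DHT animal 61 inside their range. Against placebo the estradiol difference was 1.67 (limma adjusted p 0.221) and the DHT difference -2.50 (limma adjusted p 0.0214). A second probe of Sult3a1 with a smaller SD over the arrays differed by 0.52, with a limma adjusted p of 0.312.

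Cyp17a1 encodes the steroid hydroxylase and lyase on the way to androgens, and its transcript is present in mouse liver. Estradiol livers had -1.01, 1.52, 1.64, 0.21 and -0.06, and DHT livers -3.58, -3.22, -1.07, -3.85 and -2.55. The groups did not overlap, but estradiol animal 41 was only just above DHT animal 61. The difference was 3.31 ± 0.44 (SE), or 9.94-fold, with a limma adjusted p of 9.98e-05. Against placebo estradiol differed by 1.15 (limma adjusted p 0.226) and DHT by -2.17 (limma adjusted p 0.00343).

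Slc22a26 and Slc22a27, a pair of organic anion transporter genes, were lower with DHT than with placebo, and estradiol did not pass against placebo. Slc22a26 was at 0.74, 0.43, 0.36, 0.08 and 0.17 in estradiol livers, against -4.43, -3.60, -0.08, -4.35 and -1.13 in DHT livers. Every estradiol liver was above every DHT liver, but DHT animal 61 came close to the lowest estradiol animals. The difference of 3.07 ± 0.56 (SE) had a limma adjusted p of 0.0044. Slc22a27 was at -0.08, 0.06, 0.10, -0.09 and -0.04 with estradiol and at -2.48, -2.59, -0.59, -2.54 and -1.85 with DHT. Its estradiol values spanned a narrow range, and its difference was 2.00 ± 0.37 (SE) with a limma adjusted p of 0.00453. Against placebo, DHT differed by -3.36 for Slc22a26 (limma adjusted p 0.000454) and by -2.55 for Slc22a27 (limma adjusted p 0.000163). Estradiol differed from placebo by -0.29 and -0.54, with limma adjusted p of 0.822 and 0.518.

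The female-typical cytochrome P450 genes Cyp2b13 and Cyp2b9 showed the same order but with overlap at a single DHT animal. Cyp2b13 was at 0.56, -0.31, -0.71, 0.42 and 0.14 with estradiol and at -5.28, -4.10, 0.23, -5.17 and -2.10 with DHT. Cyp2b9 was at 0.66, -0.07, -0.25, 0.74 and 0.24 with estradiol and at -4.72, -2.94, 0.29, -4.34 and -1.43 with DHT. Animal 61 lay among the estradiol livers for both genes. The differences were 3.30 ± 0.72 (SE) for Cyp2b13 and 2.89 ± 0.61 (SE) for Cyp2b9, with limma adjusted p of 0.0187 and 0.0149. Without animal 61 they were 4.18 and 3.62, and without animal 59 the limma adjusted p were 0.107 and 0.0941. Calls of both genes were also lost without animal 60 or 62. Other probes of the same genes differed by 0.53 and 0.20 and did not pass.

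The promoters of Cyp2b13 and Cyp2b9 are shown because the transcripts moved together and the genes are near copies. RefSeq windows of the GRCm38.p6 build hold the 250 bases before each start, printed 5′ to 3′. Of 250 aligned bases 248 (99.2%) were identical, and capitals mark the bases that differ, C104T and T48C from Cyp2b9 to Cyp2b13 counted from the 5′ end.
Cyp2b13, chr7:26061245-26061494, plus strand: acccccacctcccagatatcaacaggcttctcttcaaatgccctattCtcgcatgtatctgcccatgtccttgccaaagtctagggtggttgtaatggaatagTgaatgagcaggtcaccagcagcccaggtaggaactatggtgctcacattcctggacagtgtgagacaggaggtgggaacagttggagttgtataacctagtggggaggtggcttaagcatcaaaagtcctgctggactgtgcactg
Cyp2b9, chr7:26173159-26173408, plus strand: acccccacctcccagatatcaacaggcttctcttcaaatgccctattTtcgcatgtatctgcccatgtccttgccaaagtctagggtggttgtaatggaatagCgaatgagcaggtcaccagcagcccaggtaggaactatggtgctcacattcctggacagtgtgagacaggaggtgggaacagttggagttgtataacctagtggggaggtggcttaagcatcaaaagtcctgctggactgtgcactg
Transcripts of such near copies can hybridise to each other's probes, so their differences are not independent of each other.

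The promoters of Sult3a1, Slc22a26 and Fbf1 are shown for the motif of STAT5, the factor that carries the growth hormone signal. The motif searched was TTCNNNGAA, which reads the same way on both strands in its fixed letters, and it is in capitals in each window. Capitals near the 3′ end of the Slc22a26 window mark AGAACA on the other strand. This hexamer can be bound by the androgen or the glucocorticoid receptor, and the motifs share no base.
Sult3a1, chr10:33857472-33857721, plus strand: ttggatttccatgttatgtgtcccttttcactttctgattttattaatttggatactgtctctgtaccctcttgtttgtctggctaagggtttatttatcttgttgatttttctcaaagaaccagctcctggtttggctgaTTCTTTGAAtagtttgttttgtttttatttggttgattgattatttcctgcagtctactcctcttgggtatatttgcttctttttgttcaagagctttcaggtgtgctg
Slc22a26, chr19:7802668-7802917, minus strand: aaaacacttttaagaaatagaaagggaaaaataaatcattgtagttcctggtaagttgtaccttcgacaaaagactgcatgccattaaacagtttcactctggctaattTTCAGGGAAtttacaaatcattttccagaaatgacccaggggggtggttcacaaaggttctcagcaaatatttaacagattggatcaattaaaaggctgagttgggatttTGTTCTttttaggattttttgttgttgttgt
Fbf1, chr11:116168179-116168428, minus strand: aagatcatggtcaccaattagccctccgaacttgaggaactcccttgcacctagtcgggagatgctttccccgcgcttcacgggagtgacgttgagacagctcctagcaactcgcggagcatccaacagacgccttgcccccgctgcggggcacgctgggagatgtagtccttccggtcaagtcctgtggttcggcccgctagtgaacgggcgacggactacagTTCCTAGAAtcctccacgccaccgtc
RefSeq windows were found for 25 of the 30 named genes, 13 of the highest and 12 of the lowest. TTCNNNGAA occurred in 2 of 19 windows of the highest genes (10.5%), in 1 of 16 windows of the lowest genes (6.25%) and in 7.02% of all 32851 windows. AGAACA on either strand occurred in 4 of the 19 (21.1%), in 3 of the 16 (18.8%) and in 16.1% of all windows. The palindromic estrogen response element, with any bases in its spacer, was in 0 of the 19, in 0 of the 16 and in 0.0639% of all windows. AGGTCA, a hexamer bound by many nuclear receptors that can overlap that palindrome, was found on either strand in 5 of the 19 (26.3%), in 4 of the 16 (25%) and in 14% of all windows. Windows of 1 gene can overlap, so they are not independent, and no test was made. A match is a run of letters and not a binding site, and nothing follows from its absence in so short a window.

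Cyp2c40, a P450 that oxidises arachidonic acid, was at -0.05, 0.72, 0.57, 0.73 and 0.83 with estradiol, against -2.19, -2.46, -0.24, -2.64 and -0.46 with DHT. Animals 61 and 63 were the highest DHT livers and still below every estradiol liver. The difference was 2.16 ± 0.34 (SE) with a limma adjusted p of 0.000964. Other probes of Cyp2c40 differed by 1.37, 1.10 and -0.04. Rad51b, a gene of DNA recombination repair, was at 0.25, 0.59, -0.04, 0.02 and 0.40 with estradiol, against -2.02, -1.87, -0.57, -1.83 and -2.60 with DHT. It differed by 2.02 ± 0.28 (SE), with a limma adjusted p of 0.000191. Both genes were lower with DHT than with placebo, by -1.79 for Cyp2c40 (limma adjusted p 0.00165) and -1.89 for Rad51b (limma adjusted p 0.000188). Estradiol and placebo differed by 0.37 for Cyp2c40 and 0.14 for Rad51b, and neither passed. A1bg, a plasma glycoprotein gene, differed by 3.15 ± 0.77 (SE) with overlap at animal 61 and a limma adjusted p of 0.0399. The calls of A1bg and of Abcd2, a peroxisomal fatty acid transporter gene with a difference of 1.29, were lost without animal 44, 46, 59, 60 or 62, for A1bg also 43 or 45 and for Abcd2 also 41.

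A different pattern was seen for Mmd2 and Corin, which were high with estradiol. Mmd2, a gene of the progestin and adipoQ receptor family, was at -0.72, 1.64, 2.21, -0.40 and 0.24 with estradiol and at -1.79, -1.64, -1.77, -2.21 and -1.68 with DHT. Corin, a membrane protease that activates natriuretic peptide, was at -1.45, 1.69, 2.43, -0.60 and 0.67 with estradiol and at -1.88, -1.82, -1.54, -1.94 and -1.52 with DHT. DHT livers lay close together, whereas estradiol livers were spread, with animals 43 and 44 highest and animals 41 and 45 lowest for both genes. The differences were 2.42 ± 0.45 (SE) for Mmd2 and 2.29 ± 0.47 (SE) for Corin, with limma adjusted p of 0.00485 and 0.0108. The Corin call was lost without animal 44, at 1.82 and a limma adjusted p of 0.0704. Against placebo, estradiol differed by 1.86 for Mmd2 (limma adjusted p 0.0334) and by 1.89 for Corin (limma adjusted p 0.0361). DHT differed from placebo by -0.56 and -0.40, with limma adjusted p of 0.674 and 0.825. Dntt, the template-free DNA polymerase of lymphocyte precursors, followed the same order of animals. It was at -0.83, 1.51, 1.72, -0.62 and -0.10 with estradiol, against -1.81, -1.497, -1.33, -1.94 and -0.70 with DHT, a difference of 1.79 ± 0.37 (SE) with a limma adjusted p of 0.0122. Its groups overlapped at DHT animal 63, and the Dntt call was lost without animal 43, 44 or 59. Of the T, B and NK cell markers 15 were measured, and Dntt was the only one that passed. Their mean log2 ratio ran from -0.13 to 0.28 in estradiol livers and from -0.22 to -0.06 in DHT livers, and its part in the Dntt difference was not tested. In whole liver, fewer cells of a type and less RNA per cell cannot be told apart.

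**Figure D2:**
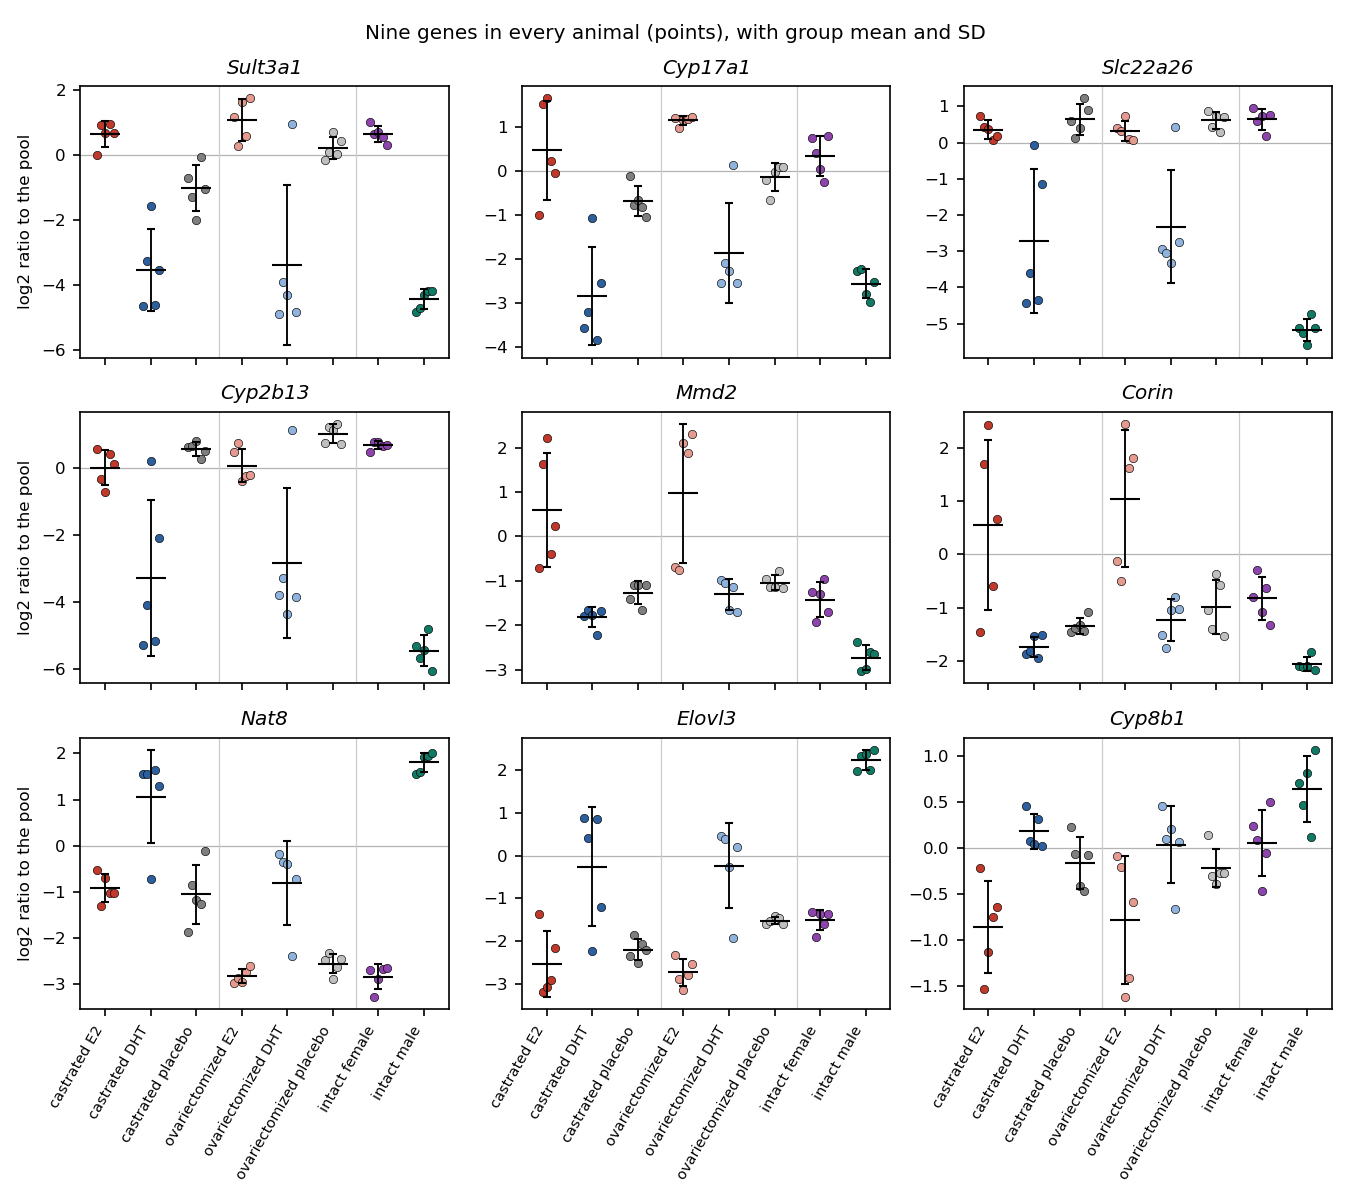
The values of 9 genes in all 40 animals, as log2 ratio to the pool (vertical axes), by group (horizontal axes); points are animals and bars the group mean with SD (n = 5). Sult3a1, Cyp17a1, Slc22a26 and Cyp2b13 are low with DHT, Mmd2 and Corin are high and spread with estradiol, and Nat8 is high in 4 of 5 castrated males with DHT.

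Other named genes that were higher with estradiol had smaller differences. Cyp39a1, an oxysterol hydroxylase of bile acid synthesis, was at 0.23, -0.41, 0.33, 0.20 and 0.07 with estradiol and at -1.69, -1.81, -0.44, -2.16 and -0.97 with DHT, a difference of 1.496 ± 0.33 (SE) with a limma adjusted p of 0.0196. Avpr1a, the vasopressin receptor of hepatocytes, differed by 1.07 ± 0.18 (SE) with a limma adjusted p of 0.00198. Trim2, a ubiquitin ligase gene, differed by 0.95 ± 0.18 (SE) with a limma adjusted p of 0.00712. DHT was lower than placebo for all 3 of these genes, by -1.36, -0.75 and -0.93, with limma adjusted p of 0.0154, 0.0125 and 0.00245. Tmprss2, a membrane serine protease gene, differed by 0.82 with a limma adjusted p of 0.048. Spg20, which encodes the lipid droplet protein spartin, differed by 0.71, and it was the estradiol livers that differed from placebo, by 0.68 (limma adjusted p 0.012), against -0.03 for DHT (limma adjusted p 0.977). Tent5a, a poly(A) polymerase gene, differed by 0.70 and Abcb11, the bile salt export pump, by 0.61. The calls of Cyp39a1, Spg20 and Tent5a were lost without animal 44, and those of Cyp39a1 and Tmprss2 also without animal 59, 60 or 62 and, for Tmprss2, 43 or 44.

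The lowest genes with estradiol included several that were raised with DHT against placebo. Fbf1, a gene of the cilium base, was at -0.52, -0.68, -0.66, -1.12 and -0.31 with estradiol, against 1.13, 0.51, -0.23, 0.57 and 0.62 with DHT. DHT animal 61 was again nearest to the estradiol livers. Fbf1 differed by -1.18 ± 0.20 (SE) with a limma adjusted p of 0.00198. Pdxk, which makes the active form of vitamin B6, was at 0.03, -0.46, -0.79, -0.03 and 0.00 with estradiol and at 0.70, 0.51, 0.73, 0.59 and 0.28 with DHT. It differed by -0.81 ± 0.12 (SE) with a limma adjusted p of 0.000325, and animal 61 was the highest DHT liver here. Dnase1, a secreted nuclease gene, differed by -0.84 ± 0.14 (SE), and Lefty1, an inhibitor of Nodal signalling, by -0.83 ± 0.14 (SE), with limma adjusted p of 0.00198 and 0.00252. DHT exceeded placebo for Fbf1 by 1.10, for Pdxk by 0.53, for Dnase1 by 0.67 and for Lefty1 by 0.61, with limma adjusted p of 0.00107, 0.00827, 0.0051 and 0.0125. Estradiol did not pass against placebo for any of these 4 genes.

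Krt23, Cyp8b1 and Igfbp2 were lower with estradiol than with DHT, and the placebo means lay between those of estradiol and DHT. Cyp8b1, the sterol hydroxylase that directs bile acid synthesis to cholic acid, was at -0.22, -1.53, -1.13, -0.75 and -0.65 with estradiol and at 0.45, 0.08, 0.05, 0.31 and 0.02 with DHT. The difference was -1.04 ± 0.25 (SE) with a limma adjusted p of 0.0356. Igfbp2, a carrier of insulin-like growth factors, was at -0.08, -1.26, -1.14, -0.13 and -0.50 with estradiol and at 0.49, 0.09, 0.38, 0.41 and 0.21 with DHT. Animals 43 and 44 were again at the far end, here the low one, and the difference was -0.93 ± 0.22 (SE) with a limma adjusted p of 0.0279. Krt23, a keratin gene, was at -0.64, -1.06, -1.29, -1.16 and -0.68 with estradiol and at 0.45, 0.22, -0.23, 0.44 and -0.33 with DHT, a difference of -1.07 ± 0.25 (SE) with a limma adjusted p of 0.0289. Krt23 was the only one of 6 measured cholangiocyte markers that passed. The mean log2 ratio of the 6 was -0.35 to 0.05 in estradiol livers and -0.05 to 0.13 in DHT livers, and its part in the Krt23 difference was not tested. Estradiol differed from placebo by -0.82 for Krt23, -0.70 for Cyp8b1 and -0.50 for Igfbp2, and DHT by 0.26, 0.34 and 0.43, none of which passed. All 3 calls were lost without animal 43, 44, 59 or 62.

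The remaining named genes differed by less. Slc2a5, the fructose transporter, was at -0.10, -0.29, -0.15, -0.55 and -0.24 with estradiol and at 0.27, 0.77, 0.68, 0.44 and 0.56 with DHT, a difference of -0.81 ± 0.20 (SE) with a limma adjusted p of 0.0454. Its values were tight within both groups, and with Sult3a1 it was the only one of the 30 that also passed when the spread came from these 10 animals alone. In the fit to all 40 animals its call was lost without any one of 8 of the 10 animals. Tmem134 fell by 0.66, Gal3st1, a sulfotransferase gene of glycolipids, by 0.57, Hmgn2, a nucleosome binding protein gene, by 0.54, and Nectin2, a cell adhesion gene, by 0.54. Csrp2, a LIM domain gene, fell by 0.52, Adssl1, of purine nucleotide synthesis, by 0.48, and Akip1, a kinase-interacting protein gene, by 0.47. The limma adjusted p of these 7 genes ran from 0.00342 for Akip1 to 0.0342 for Nectin2, and of the 7 Akip1 alone kept its call when each animal was left out in turn. Tmem134, Gal3st1, Nectin2, Csrp2 and Adssl1 lost it without animal 44, and Hmgn2 without animal 60, among others. The other probe of Gal3st1 differed by -0.06, and the other 6 probes of Hmgn2 by -0.55 to -0.09.

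**Figure D3:**
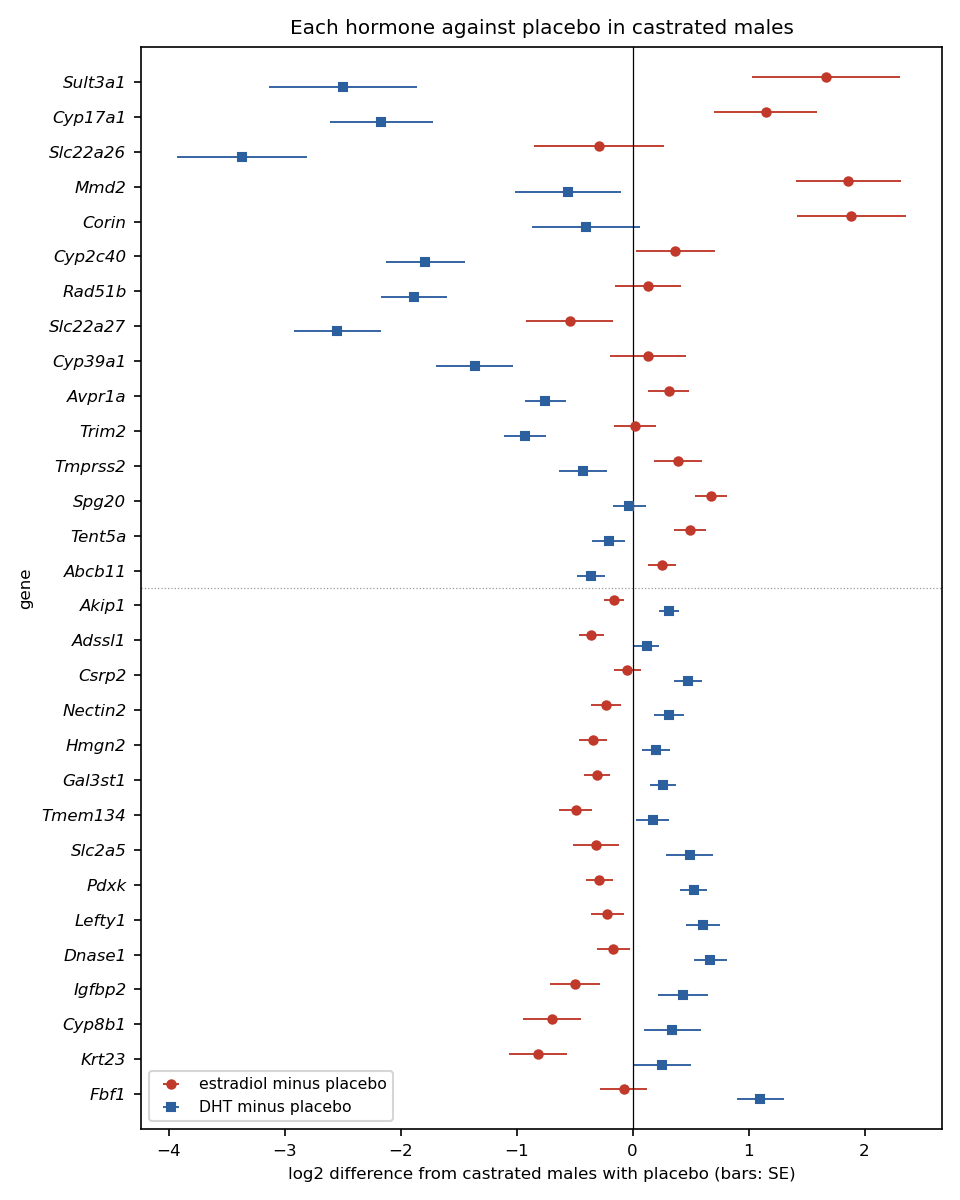
Differences of castrated males with estradiol (red circles) and with DHT (blue squares) from castrated males with placebo for the 30 named genes, on the log2 scale with SE bars (n = 5 a group). Both differences share the placebo animals. DHT lies far left of 0 for Slc22a26, Slc22a27, Sult3a1 and Cyp17a1, and estradiol far right for Mmd2, Corin and Sult3a1.

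Across all probes, 278 passed between estradiol and placebo (1.18%) and 819 between DHT and placebo (3.47%), in comparisons that share animals with each other and with the one reported here. The first count was 69, 144 and 165 without placebo animals 24, 25 and 26, and 179 and 84 without estradiol animals 45 and 46. The second was 491 and 425 without placebo animals 24 and 27, and 338, 500 and 335 without DHT animals 59, 60 and 62.

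Of the male-typical liver genes, Nat8, Elovl3 and Cyp4a12a were lower with estradiol, with animal 61 apart. Nat8, an acetyltransferase gene, was at -0.53, -1.32, -0.70, -1.02 and -1.02 with estradiol and at 1.56, 1.54, -0.72, 1.65 and 1.29 with DHT. Elovl3, a fatty acid elongase gene, was at -1.35, -3.17, -3.06, -2.89 and -2.15 with estradiol and at 0.88, 0.41, -2.24, 0.85 and -1.19 with DHT. Cyp4a12a, a fatty acid hydroxylase gene, was at -1.40, -0.86, -1.13, -1.81 and -0.96 with estradiol and at 1.499, 1.33, -1.5004, 1.47 and 0.22 with DHT. For all 3 genes animal 61 lay within the estradiol range, and the other 4 DHT livers lay above that range. The differences were -1.98 ± 0.34 (SE) for Nat8, -2.27 ± 0.41 (SE) for Elovl3 and -1.84 ± 0.35 (SE) for Cyp4a12a, with limma adjusted p of 0.00198, 0.0044 and 0.00666. Without animal 61 they were -2.43, -2.76 and -2.36. DHT exceeded placebo by 2.12, 1.93 and 2.27, while estradiol differed from placebo by 0.14, -0.33 and 0.44 and did not pass.

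Hsd3b5, a ketosteroid reductase gene of the male liver, was at -2.71, -3.39, -2.51, -2.36 and 0.60 with estradiol and at 2.41, 1.29, -3.19, 1.98 and 1.20 with DHT. Estradiol animal 46 and DHT animal 61 each lay with the other group. The difference of -2.81 ± 0.73 (SE) did not pass, with a limma adjusted p of 0.0579. It passed without animal 61, at -3.79 and a limma adjusted p of 0.000369, and without animal 46, at -3.48 and 0.0122. Another probe of the gene differed by 0.01. Cyp7b1, a male-typical oxysterol hydroxylase gene, was at -1.504, 1.72, 1.65, -1.34 and 0.92 with estradiol, at 0.77, -0.42, -2.33, 0.10 and -0.43 with DHT and at -3.07 to -1.92 with placebo. Estradiol and DHT livers overlapped widely and differed by 0.75 ± 0.68 (SE), with a limma adjusted p of 0.638. Against placebo, estradiol differed by 2.85 (limma adjusted p 0.0289) and DHT by 2.10 (limma adjusted p 0.0809).

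The lists of sex-biased liver genes were written with earlier results of these data known, and no set test was made. Their counts are therefore a description and not independent evidence of enrichment. Of 31 measured genes listed as female-biased in mouse liver, 10 rose and 0 fell with estradiol against DHT, with a median difference of 0.63. Of all genes 0.563% rose and 0.415% fell, with a median of -0.01. The 10 were Sult3a1, Cyp2b13, Cyp17a1, A1bg, Slc22a26, Cyp2b9, Cyp2c40, Slc22a27, Cyp39a1 and Abcd2. Sult2a1, a female-typical sulfotransferase gene, did not pass, at -3.28, -3.48, -3.85, -3.76 and -3.76 with estradiol and -3.64, -3.24, -2.999, -3.43 and -2.96 with DHT. Of 26 measured male-biased genes, 4 fell and 0 rose, with a median of -0.41, beside the same 0.415% and 0.563% of all genes. They were Elovl3, Nat8, Cyp4a12a and Cyp8b1. Against placebo, the median of the male-biased list was 0.48 for estradiol and 1.20 for DHT, so both were above placebo. That of the female-biased list was -0.03 for estradiol and -0.63 for DHT. Cyp2d9, a male-typical steroid hydroxylase gene, differed by -1.25 with a limma adjusted p of 0.184.

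The sex difference of intact animals was also set out per animal as a score, the mean log2 ratio of 161 probes higher in intact females minus that of 299 probes higher in intact males. These 460 are the probes that passed between intact females and males with at least 1.5-fold (1.95%). The score was -0.05, -0.06, -0.04, 0.07 and -0.40 with estradiol and -1.37, -0.999, 0.13, -1.29 and -0.55 with DHT. Animal 61 was above all estradiol animals, and the other 4 DHT animals were below them. Group means were -0.10 ± 0.18 with estradiol, -0.81 ± 0.62 with DHT and 0.48 ± 0.06 with placebo (SD, n = 5 each). Intact females had 0.83 ± 0.07 and intact males -1.72 ± 0.27 (SD, n = 5 each), in which the probes were chosen. The difference between estradiol and DHT livers was 0.717, and 0.955 without animal 61. With probes chosen at a stricter threshold it was 1.40. Both hormone groups lay below placebo and above intact males in their mean.

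**Figure D4:**
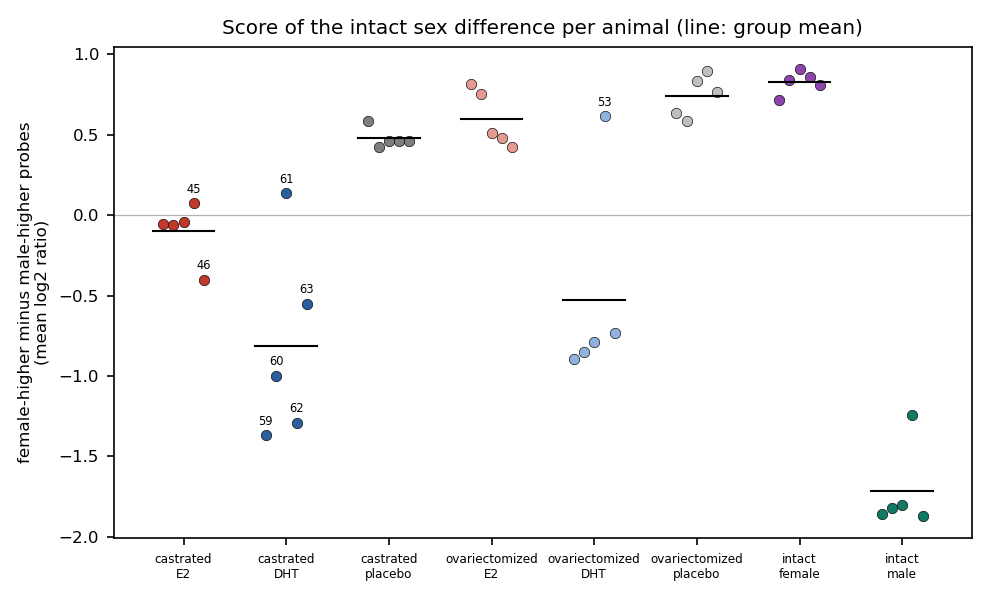
Score of the intact sex difference (vertical axis, mean log2 ratio of female-higher minus male-higher probes) in each animal by group, with the group mean as a line and the numbers of some animals. Estradiol animals lie between -0.40 and 0.07, 4 of 5 DHT animals between -1.37 and -0.55, and DHT animal 61 at 0.13; among ovariectomized females with DHT, animal 53 lies at 0.62.

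Genes of bile acid synthesis and transport changed in both directions. Of 24 measured, 3 rose and 2 fell with estradiol against DHT, and the median was 0.05. For this list and those that follow, 0.978% of all genes passed, 0.563% higher and 0.415% lower. Besides Cyp39a1 and Abcb11, Klb, the co-receptor for the hormones FGF15 and FGF21, rose by 0.53, with overlapping groups (limma adjusted p 0.0498). Besides Cyp8b1, Amacr, an enzyme gene of bile acid synthesis, was lower by 0.42 with a limma adjusted p of 0.0044. Amacr was at -0.22, -0.23, -0.25, -0.09 and -0.02 with estradiol and at 0.39, 0.28, 0.03, 0.42 and 0.19 with DHT, without overlap. The placebo median of Amacr was -0.22, beside medians of -0.22 with estradiol and 0.28 with DHT. Of 33 measured P450 genes of foreign compounds, 3 rose and 0 fell, namely Cyp2b13, Cyp2b9 and Cyp2c40. Of 35 genes of conjugation and transport, 3 rose and 0 fell, namely Sult3a1, Slc22a26 and Slc22a27.

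In the acute phase and complement list 2 of 34 genes rose and 0 fell. Lbp, the lipopolysaccharide binding protein gene, was at 0.16, 0.48, 0.38, 0.22 and 0.26 with estradiol and at -0.48, -0.49, -0.11, -0.44 and 0.07 with DHT, a difference of 0.59 ± 0.12 (SE) with a limma adjusted p of 0.00826. Apcs, serum amyloid P, an acute phase protein of mice, differed by 1.37 ± 0.33 (SE) with overlap and a limma adjusted p of 0.0377. Of 22 genes of estrogen-sensitive plasma proteins 0 passed in limma, and 2 were higher and 0 lower at an unadjusted p under 0.05, a threshold that 12.5% of all probes reached. Neither count is a result about that list. Of 22 genes of steroid hormone metabolism Cyp17a1 alone passed.

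Fatty acid genes were lower in single members. G0s2, an inhibitor of fat breakdown by the lipase ATGL, was at -0.18, -2.33, -2.22, -1.29 and -1.48 with estradiol and at 0.96, 0.13, 0.28, -1.04 and -0.19 with DHT. Animal 41 lay in the DHT range, and the difference of -1.53 ± 0.37 (SE) had a limma adjusted p of 0.0411. It was the 1 of 28 genes of fatty acid oxidation and fasting that passed, and the median of that list was -0.14. Cpt1a and Ppara, the gate of mitochondrial oxidation and the fasting receptor, differed by -0.37 and -0.42 and did not pass. Elovl3 was the 1 of 26 genes of fatty acid and triglyceride synthesis that passed, with a list median of -0.21. Gys2, the liver glycogen synthase gene, was at -0.23, -0.47, -0.58, -0.35 and -0.08 with estradiol and at 0.29, 0.53, 0.60, 0.49 and 0.50 with DHT. These groups did not overlap, but the difference of -0.82 ± 0.22 (SE) had a limma adjusted p of 0.0659, while with the spread of these 10 animals alone it was 0.0125.

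In growth hormone signalling Igfbp2 was the 1 of 19 genes that passed. Socs2, a feedback inhibitor that growth hormone induces, differed by 1.36 ± 0.41 (SE) with a limma adjusted p of 0.117, and passed without animal 63. Cux2, a female-typical repressor, differed by 0.84 and Stat5a by 0.52, and neither passed. The growth hormone receptor gene Ghr differed by 0.27 (limma adjusted p 0.624). Esr1, which encodes the main estrogen receptor of liver, differed by -0.18 (limma adjusted p 0.519). Of 15 steroid receptor and cofactor genes 0 passed, among them the estrogen-responsive gene Tff3 at 1.26 and the progesterone receptor gene Pgr at -0.32. In each of the lists of cholesterol synthesis, the circadian clock, glucocorticoid-linked genes, the unfolded protein response, heme and iron, retinoids, respiratory chain, cell cycle, interferon and glucose output 0 passed in limma. These lists had 15 to 28 measured genes each. At an unadjusted p under 0.05, 0 to 3 of each list were higher and 0 to 3 lower, beside 12.5% of all probes in either direction. Heme and iron had the most, 2 higher and 3 lower of 20. No set test was made, so the counts are not a result about these lists. Gldc, of glycine breakdown, rose by 0.60 as the 1 of 27 amino acid genes that passed, with a limma adjusted p of 0.0427. The calls of Gldc, Klb, Apcs and G0s2 were each lost without animal 44, 59 or 60, among others.

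Markers of other cell types passed in 3 cases, Krt23, Dntt and Alas2. Alas2, the first enzyme of heme synthesis in red cells, was at -0.45, -0.64, -0.62, -0.62 and -0.14 with estradiol and at 1.23, 0.83, -0.57, 1.35 and 0.49 with DHT. Animal 61 was again with the estradiol livers, and the difference of -1.16 ± 0.24 (SE) had a limma adjusted p of 0.0108. Placebo livers ran from -0.81 to -0.46 for Alas2, with a median of -0.63, beside medians of -0.62 with estradiol and 0.83 with DHT. Of the 7 measured red blood cell markers the 6 others did not pass, and their mean with Alas2 ran from -0.23 to -0.03 in estradiol livers and from -0.19 to 0.34 in DHT livers. The part of red cells in the Alas2 difference was not tested, and its call was lost without animal 59 or 62. Of 14 macrophage and Kupffer cell markers 0 passed in limma. At an unadjusted p under 0.05, 1 was higher, beside 12.5% of all probes in either direction. All 14 differences were positive, with a median of 0.18, beside -0.01 over all genes. Markers of 1 cell type can vary together, so these are not 14 independent results, and no set test was made. Vsig4, a Kupffer cell receptor gene, at 0.59 had a limma adjusted p of 0.345. The mean of the 14 was -0.45 to 0.79 in estradiol livers and -0.44 to -0.12 in DHT livers. Of 10 stellate cell and fibroblast markers 0 passed in limma, and their median was 0.19. At an unadjusted p under 0.05, 4 of these were higher and 1 lower, beside the same 12.5% of all probes, and no set test was made. Their mean was -0.15 to 0.27 in estradiol livers and -0.19 to -0.02 in DHT livers.

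The same hormones were compared in ovariectomized females, in animals that share only the pool and the estimate of spread with the males. There 893 probes passed (3.79%), a count that was 1523, 538, 281 and 460 without estradiol animals 34, 35, 36 and 37 and 562, 560 and 495 without DHT animals 50, 52 and 54. Of the 167 probes of the males, 71 passed in females in the same direction and 0 in the opposite one, which is 42.5% of the 167 and 7.95% of the 893. The sign was the same for 152 of the 167 (91%), against 45.9% of all probes. Pearson's r across probes was 0.398 over all and 0.943 over the 167, as a description, since probes of one array are not independent. The 167 were chosen by their difference in males, so their r and shared signs do not compare with all probes on equal terms. Over the 167 the median absolute difference was 0.592 in males and 0.346 in females. The difference in females was 4.47 for Sult3a1, 3.02 for Cyp17a1, 2.65 for Slc22a26, 2.27 for Mmd2 and 2.27 for Corin. It was -2.02 for Nat8, -2.49 for Elovl3 and -0.82 for Cyp8b1. Mmd2 in ovariectomized females was at -0.70, -0.77, 2.10, 1.89 and 2.31 with estradiol and at -0.97, -1.06, -1.65, -1.14 and -1.70 with DHT, so the estradiol animals were spread in this sex too.

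Whether the difference depended on sex was tested as an interaction. At an adjusted p under 0.05 in limma 0 of 23574 probes passed, and the smallest limma adjusted p was 0.249. At an unadjusted p under 0.05 there were 2671 probes, or 11.3%. Of the 106 genes that passed in males, 30 reached that unadjusted threshold in limma. Those genes were chosen by their difference in males, which is part of the interaction. Without ovariectomized DHT animal 53, 6 probes passed, among them Sult2a1 at -3.80 and Cyp2d9 at 2.19, and 4 unnamed. Sult2a1 was at 1.12, -0.10, 0.50, 0.53 and -0.56 in ovariectomized females with estradiol and at -3.51, -2.70, -3.33, 1.90 and -2.98 in those with DHT, where animal 53 was the high one. In castrated males both groups were at the low level given above. One probe passed without DHT animal 61, 1 without DHT animal 63, named Cyp2c54, and 1712 passed with array weights. Cyp39a1 differed by 1.496 in males and 0.28 in females, and the interaction of 1.22 ± 0.47 (SE) had a limma adjusted p of 0.377.

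**Figure D5:**
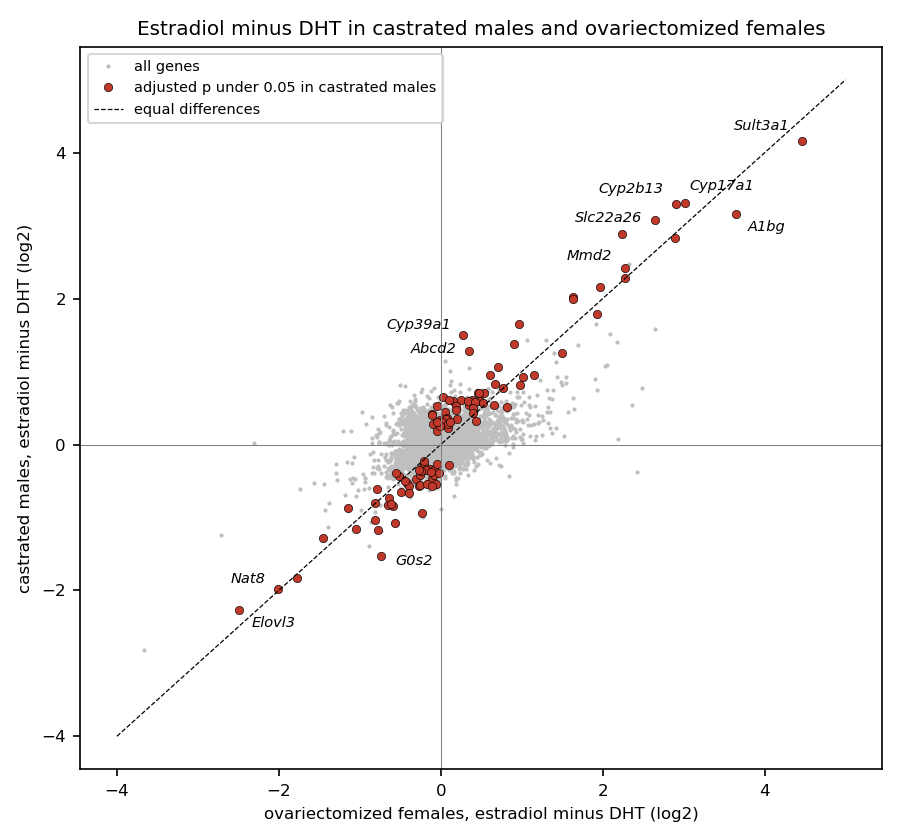
Estradiol minus DHT in castrated males (vertical axis) against ovariectomized females (horizontal axis), as log2 differences of group means, for all 10842 named genes (grey) and the 106 that passed in males (red), with the line of equal differences. The red points were chosen by their difference in males. Cyp39a1, Abcd2 and G0s2 are among the genes off the line, and no interaction passed.

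Intact females and males differed in 2048 probes (8.69%). Of the 167 probes, 59 passed there in the same direction, that is higher both with estradiol over DHT and in females over males, or lower in both, and 5 in the opposite one, so the same direction held for 35.3% of the 167 and 2.88% of the 2048. The sign was the same for 118 (70.7%), against 47.4% of all probes. Pearson's r was 0.27 over all probes and 0.824 over the 167, which were again those chosen by the estradiol minus DHT difference in males. The female minus male difference was 5.08 for Sult3a1, 2.91 for Cyp17a1, 5.81 for Slc22a26 and 6.14 for Cyp2b13. It was 1.30 for Mmd2 and 1.23 for Corin, with limma adjusted p of 0.0695 and 0.101, and 0.69 for Krt23 with 0.0805. Adssl1 and Hmgn2 were lower with estradiol than with DHT but higher in intact females, by 0.45 and 0.43, with limma adjusted p of 0.00411 and 0.0175.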

How the data were processed

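Liver RNA of each mouse was labelled with Cy5 and hybridised against a Cy3-labelled pool of equal parts of RNA from all samples, 1 array per mouse and no dye swap, per the labels' protocols. The deposited values are log10 ratios of Cy5 over Cy3. Their background correction and normalization are not given in the sources used here, and they stop at -2 and 2, which 29 values on 16 probes reach. No slide, scan date or other batch is labelled, so none was tested.

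Ratios were multiplied by 3.32 to give log2. Means of the 8 groups were fitted to all 40 arrays in limma 3.58.1 (R 4.3.3) with empirical Bayes variances (32 residual and 3.42 prior degrees of freedom), and p-values were adjusted by Benjamini and Hochberg over 23574 probes in each contrast. Each of 10842 named genes was represented by its probe of largest SD over the 40 arrays. Of all probes 13665 had 1 symbol in the platform annotation, 48 several and 9861 none, and 1003 with 1 symbol were outside the mouse gene table. The text names the 15 highest and 15 lowest genes that passed with no overlap between groups, and up to 5 members of each gene list. Other genes were chosen after their values were seen. Members, lists and tests were chosen with earlier results of these data known. Each sample is a separate mouse. Genes such as Prlr, Cyp7a1 and the Mup family were not analysed here.

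Alternatives were a fit to the contrast's groups alone, quantile and scale normalization, median centring, array weights, robust variances, a filter on SD, values at the limit set missing, stricter thresholds, the mean of a gene's probes, exact permutation tests and leaving out each animal.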

Additional observations from a re-analysis of the deposited data

Results flagged for a closer look

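Values of 70 reported genes were checked within the 5 estradiol and the 5 DHT animals for 1 animal far from the rest, using Dixon's gap over range against a critical value of 0.71. Of 140 such groups 7 held one, and chance gives about 1 in 20. Among estradiol animals these were animal 41 for Sult3a1, at -0.0060 with the nearest animal at 0.68, and animal 46 for Hsd3b5, at 0.60 with the nearest at -2.36. Among DHT animals, animal 61 stood apart for Nat8, at -0.72 with the nearest at 1.29, and for Hsd3b5, at -3.19 with the nearest at 1.20. Animal 63 stood apart for Tmem134, at 0.045 with the nearest at 0.38, and for the Y-linked gene Eif2s3y, at 1.44 with the nearest at 0.75. Animal 62 stood apart for Mmd2, at -2.21 with the nearest at -1.79. The cause was not tested.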

How the results depend on the processing

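No paired analysis was possible because the estradiol and DHT groups share no animal and no replicate number. With the contrast's groups alone in the fit, 8 probes passed for estradiol against DHT, 37 for estradiol against placebo, 260 for DHT against placebo, 270 in ovariectomized and 1249 in intact animals. Scale normalization gave 101, 124, 727, 1625 and 1284 in the same order, and 1 probe for the interaction, while array weights gave 1877, 753, 3801, 3075 and 5443, and 1712 for the interaction. A filter that kept the probes of larger SD over the arrays gave 1358 in intact animals. An adjusted p under 0.01 left 45 of the 167 probes, and at least 1.5-fold left 85. The score difference was 1.40 with probes at a stricter threshold. Without single animals, counts ran from 48 to 493 for estradiol against DHT, 0 to 6 for the interaction, 69 to 322 for estradiol and 335 to 1115 for DHT against placebo, 281 to 1523 in ovariectomized and 1455 to 2604 in intact animals, and the score difference from 0.579 to 0.955. The cause was not tested. Of 45 reported genes that passed, 20 did so without each animal in turn and 25 were lost at least once, and 9 of 25 that did not pass were gained. Under the other settings, 546 of 630 gene results kept direction and side of the threshold, 62 were lost, 22 gained and 0 reversed. Most losses came with the contrast's groups alone in the fit, where of the 45 only Sult3a1 and Slc2a5 kept their calls. Scale normalization ended the calls of Tmprss2, Krt23, Slc2a5, Csrp2, Cyp2b13, Cyp2b9, A1bg, Abcd2, G0s2, Klb, Apcs and Gldc, quantile normalization those of Cyp39a1, A1bg, Klb, Apcs and Gldc, and median centring those of Tmprss2 and Klb. The arrays' unstated background correction limits what can be said of dim probes.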
